A study of Mus musculus with 3 samples.

Results

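TEC genes are annotated loci whose status awaits experimental proof, a class that manual annotation gives to unspliced clusters of expressed sequence tags with signs of polyadenylation. The release used here, M21 of the mouse annotation, holds 3213 of them among 55536 genes. Of these, 251 reached at least 10 TPM (an abundance corrected for transcript length and scaled to a fixed sum) in each of the 3 gene tables, and these 251 abundant TEC genes are described here. They were chosen by these TPM values, so their levels are given as a description with no test.

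The libraries are total RNA-seq after removal of ribosomal RNA, made from the chromatin fraction of primary macrophages grown from bone marrow of C57BL/6J mice. All 3 libraries belong to 1 group: cells given 100 ng/ml lipid A for 12 h, washed and left for 12 h, and then given 100 ng/ml lipid A again for 30 min. Lipid A is the part of bacterial lipopolysaccharide that the receptor TLR4 recognises. The labels count 3 biological replicates with separate biosamples and 1 donor identifier, and give no age or sex. No untreated or once-treated cells were analysed here, so no response to lipid A can be measured.

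Chromatin-bound RNA is rich in nascent transcripts, which are still being copied and in which introns have often not yet been removed. An unspliced locus that lies inside the intron of an active gene can therefore collect reads from the unspliced RNA of that gene, its host, as well as from a transcript of its own. Unspliced cDNA clones, the kind of evidence behind such loci, can also arise when an oligo-dT primer copies from an A-rich stretch inside a longer RNA.

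Total counts over annotated genes came to 12401783, 18317179 and 18164629 in replicates 1, 2 and 3. RNA input, per the labels, was 1 µg, 250 ng and 500 ng in the same order, so input and replicate cannot be told apart. All 10 macrophage markers searched were above 1 TPM by the limma test described with the hosts below, with Adgre1 highest at 345 TPM and summed levels of 1160 to 1396 TPM by library. Of 29 markers of other cells, 1 passed the same test (Pf4, a platelet chemokine, at 3.32 TPM), Pecam1 averaged 1.59 TPM without passing, and the lymphocyte markers summed to at most 0.55 TPM in any library.

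The abundant TEC genes took 1.72%, 1.24% and 1.36% of all annotated counts in replicates 1, 2 and 3, of the 2.45%, 1.90% and 1.96% that all TEC genes took. Their mean TPM ran from 10.7 to 301, with a median of 19.6. In all, 67 of the 251 averaged at least 30 TPM, 32 at least 50 TPM and 5 at least 100 TPM. The median by library was 21.2, 18.3 and 18.2 TPM. In these bulk libraries, fewer cells transcribing a locus and less RNA of it per cell cannot be told apart. Protein-coding genes with any signal had a median of 4.17 TPM, and 77.6% of them lay below the median of the 251. The 251 were chosen at 10 TPM or more, so their higher median was set by that choice. The other 2962 TEC genes had a median of 0.0167 TPM, and 1580 of them had a nonzero value.

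Nearly all were single blocks: 250 of the 251 had 1 exon, as did 3154 of the 3213 TEC genes. They spanned 181 to 7350 bases, with a median of 2114 bases against 2008 for the whole class. They lay on 18 chromosomes, with 47 on chromosome 1, 34 on chromosome 6 and 28 on chromosome 5. For all TEC genes the counts on those chromosomes were 475, 303 and 498.

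The highest was Gm37084, at chr1:131086252-131092149 (mm10) on the minus strand, in an intron of Mapkapk2, the kinase MK2 that acts after p38 and stabilises inflammatory mRNAs. It had 373, 191 and 339 TPM in replicates 1, 2 and 3 (301 ± 96.9, SD, n = 3). It was lowest in replicate 2, as was Mapkapk2 itself at 98.8, 36.8 and 93.4 TPM. The locus collected 22881, 17169 and 28548 counts.

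AC167363.2 ranked next, on the strand opposite to Cdkn1a, the cell cycle inhibitor p21. It reached 126, 109 and 286 TPM, and exons of Cdkn1a cover 26.1% of it. Cdkn1a was at 180, 102 and 273 TPM, so both were highest in replicate 3 and lowest in replicate 2. The reads of such a pair cannot be told apart here, because the sources used here do not give whether strand was used in counting.

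Gm43197 followed with 200, 107 and 118 TPM. It lies in no protein-coding gene but in an intron of the noncoding gene Gm20559 (520 ± 132 TPM), on the same strand. Gm49730 lies inside Parp14, an ADP-ribosyltransferase induced by interferon, and 6.20% of this locus is exon of Parp14. It had 175, 92.6 and 119 TPM, and Parp14 was the host with the highest level at 878 ± 193 TPM. The next exonic loci were Gm42793 in Spp1, described with the library spread, and Gm43323 in Rbm47, an RNA-binding protein gene, at 52.5, 40.8 and 42.3 TPM. In 5th place came 5330406M23Rik at 128, 81.5 and 90.5 TPM, in an intron of Lncpint, a long noncoding RNA gene at 340 ± 39.2 TPM.

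Below them, the other 10 of the 15 highest averaged 74.7 to 99.7 TPM. Their hosts were Slc6a6, the taurine transporter (Gm44981 and Gm45828), Ptprc, which encodes CD45 (A130071D04Rik), Dock10, a guanine nucleotide exchange factor (A630081D01Rik), and Spp1, which encodes osteopontin (Gm42793). The remaining hosts were Tor1aip1, a protein of the inner nuclear membrane (9430034N14Rik), the splicing regulator Mbnl1 (Gm37589), the inositol kinase Itpkb (Gm37390), the MYC antagonist Mxd1 (Gm44292) and the clathrin assembly protein Picalm (Gm45223).

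**Figure D1:**
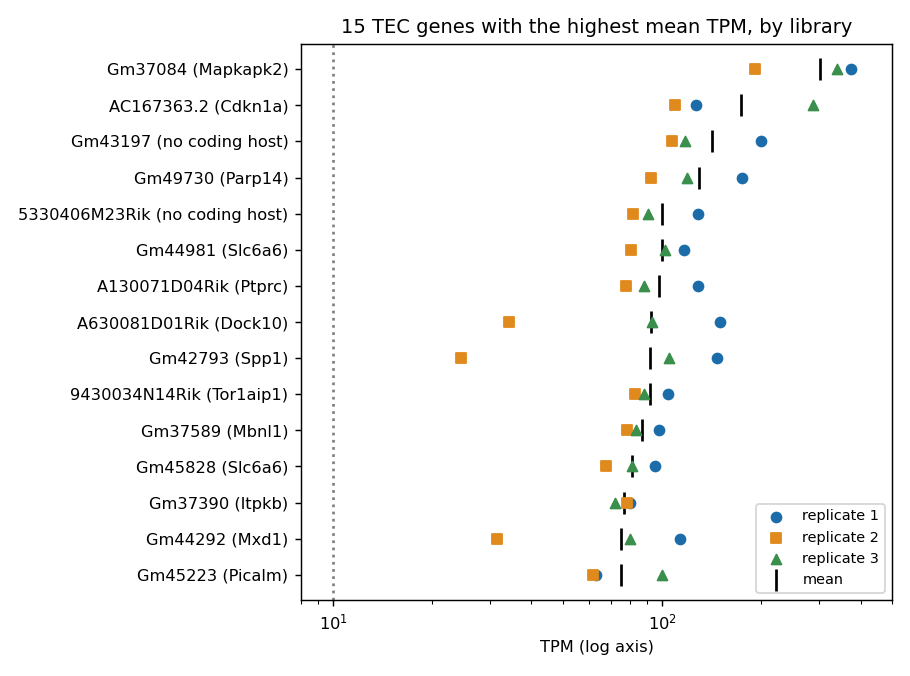
TPM (log axis) of the 15 TEC genes with the highest mean, in each of the 3 libraries, with the host gene in brackets; the black bar is the mean and the dotted line is the 10 TPM minimum. Replicate 2 is far below the others for A630081D01Rik (34.3 TPM), Gm42793 (24.5 TPM) and Gm44292 (31.5 TPM).

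At the minimum, the lowest library put Gm48562 (10.03 TPM), Gm43499 (10.07 TPM) and Gm37470 (10.08 TPM) just inside. It put Gm44745 (9.98 TPM), Gm43785 (9.96 TPM) and 9530003O04Rik (9.95 TPM) just outside. The minimum therefore cuts through a continuous range of levels.

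Most abundant TEC genes lay inside a protein-coding gene. With at least 50% of the locus inside a gene counted as inside, 228 of the 251 (90.8%) had such a host, against 60.04% of all TEC genes. On the same strand as the host and in its introns lay 178, or 70.9% of the 251 against 45.9% of all TEC genes. Another 10 were on the same strand and touched an exon of the host, 40 were on the opposite strand (15.9% against 12.2% of all), and 23 lay outside (9.16% against 40.0% of all). Counted the other way, 12.1% of the 1475 intronic same-strand TEC genes were abundant, as were 10.2% of the 393 on the opposite strand and 1.79% of the 1284 outside. In total, 214 of the 251 held no exon of any other gene (85.3%, against 87.0% of all TEC genes), so overlap with annotated exons was about as rare as in the class.

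The 228 loci had 170 hosts. Of these, 168 were above 1 TPM by limma (one-sided, Benjamini-Hochberg adjusted p under 0.05), or 99.4% of the 169 with a nonzero value. The background over all 24180 genes with a nonzero value was 51.1%, and over protein-coding genes 61.8%. Of the 958 hosts that hold only other TEC genes, 763 had a nonzero value and 483 of those were above 1 TPM (63.3%), near the share of protein-coding genes. The median level of the 958 was 1.75 TPM. The 170 hosts had a median of 58.0 TPM and reached 878 TPM. They were taken because they hold loci chosen at 10 TPM or more in the same libraries. Their share above 1 TPM is therefore not independent of that choice.

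The 2 hosts that did not pass hold 1 locus each. Fgfr2, a fibroblast growth factor receptor, was listed at 0 TPM in all 3 libraries, while Gm45719, at 12.8, 11.5 and 13.4 TPM, lies 2666 kb from the start of its gene model. Gm28285 averaged 0.13 TPM, and Gm36989 inside it had 20.97, 18.5 and 17.9 TPM. Where several genes on the same strand cover a whole locus, the longest was taken as its host. Levels of any other protein-coding gene over these 2 loci were not compared, so the loci need not lie in silent genes alone.

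The share of TEC genes that were abundant climbed with the level of the host. On the same strand it was 2 of 698 (0.287%) in hosts under 1 TPM, 5 of 296 (1.69%) at 1 to 10 TPM, 39 of 217 (17.97%) at 10 to 30 TPM, 83 of 240 (34.6%) at 30 to 100 TPM and 59 of 85 (69.4%) at 100 TPM or more. On the opposite strand the steps were 0 of 184, 2 of 76 (2.63%), 7 of 44 (15.9%), 17 of 65 (26.2%) and 14 of 24 (58.3%). Both strands thus rose over the same range of host levels. Limited to TEC genes that hold no exon of another gene, the top step was 56 of 82 (68.3%) on the same strand and 10 of 14 (71.4%) on the opposite strand, with median levels of 20.1 and 19.3 TPM. Strand use in counting is not given, so a transcript of the locus itself and unspliced RNA of the host cannot be told apart by level.

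**Figure D2:**
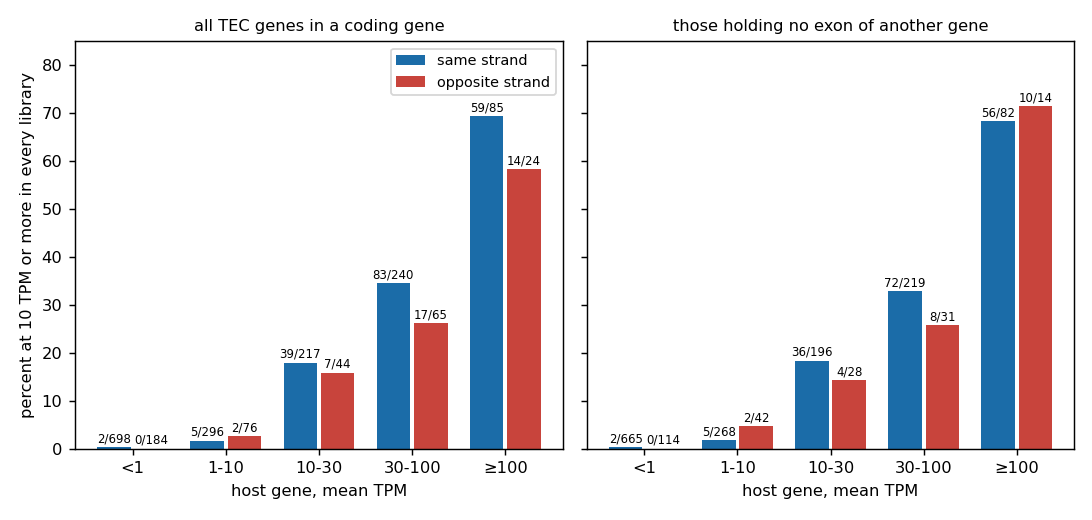
Percent of the TEC genes inside a protein-coding gene that reached 10 TPM in every library, by the mean TPM of the host and by strand, with the counts above the bars; left, all of them, right, those that hold no exon of another gene. In both panels the bars rise with the host's level on both strands, to 69.4% and 58.3% on the left and 68.3% and 71.4% on the right.

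Level was related to the host more closely over the whole class than among the 251. Over all same-strand TEC genes, Pearson's r of log2 mean TPM with that of the host was 0.89 (n = 1536 genes), and on the opposite strand it was 0.82 (n = 393). Of these, 1013 and 263 had a nonzero value, so r over the class also reflects silent loci. Among the 228 abundant loci with a host, r was 0.37 (Spearman's rho 0.40), over a range that the 10 TPM minimum cuts off. Genes are not independent replicates, and many of these loci share a host and all share the libraries.

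A typical abundant locus stood below its host. On the same strand the median log2 ratio of its TPM to the TPM of the host was −1.33, −1.48 and −1.53 in replicates 1, 2 and 3, and on the opposite strand −1.58, −1.60 and −1.73. Opposite-strand loci thus stood slightly lower beside their hosts, a difference that was not tested. At 100 TPM or more in the host, over all TEC genes whatever their own level, the median log2 ratio was −2.87 on the same strand and −3.82 on the opposite strand, and −2.90 and −3.12 among those with no exon of another gene.

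**Figure D3:**
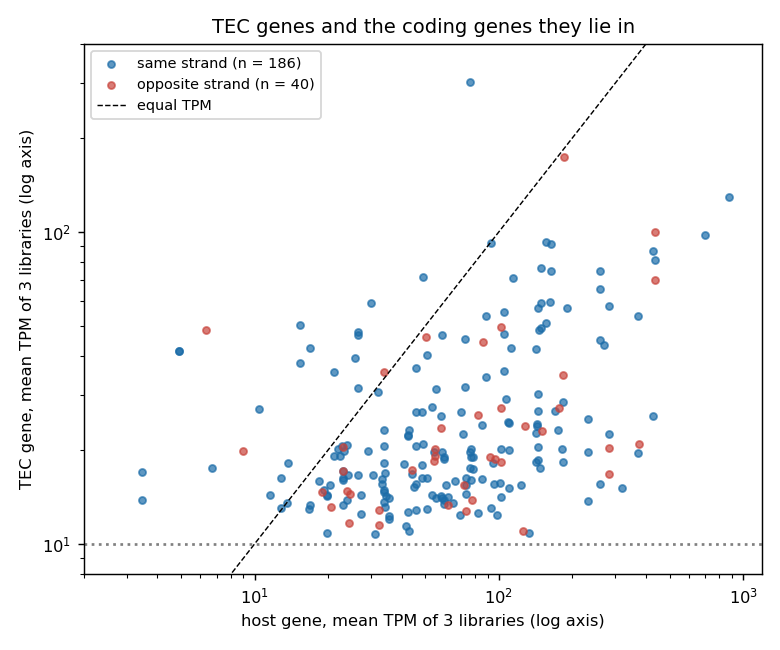
Mean TPM of 226 abundant TEC genes against the mean TPM of the host gene (log axes), in blue on the same strand (n = 186) and in red on the opposite strand (n = 40); the dashed line marks equal TPM and the dotted line 10 TPM, and the 2 loci whose hosts are under 1 TPM are not drawn. Most points lie below the dashed line, and Gm37084 stands apart at 301 TPM over a host of 76.3 TPM.

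In the gene tables, 28 of the 228 exceeded their host. Gm37084 was 2.05 above Mapkapk2 on the log2 scale. In Gm45140, a host of 4.90 TPM, 9930120I10Rik had 25.6, 55.5 and 43.8 TPM and Gm44423 had 28.4, 51.5 and 44.5 TPM. Both were lowest in replicate 1, unlike most abundant TEC genes. Both also overlap Rab43, another protein-coding gene, with which their levels were not compared. Gm43982 (50.3 ± 1.89 TPM) and Gm43984 (38.0 ± 2.93 TPM) exceeded Etv6, an ETS repressor at 15.4 TPM. Opposite Mettl9, a histidine methyltransferase gene at 6.34 ± 1.68 TPM, 2210406H18Rik had 61.2, 28.1 and 56.2 TPM. These loci were named after their values were seen.

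The order of locus and host depended on the quantification. By the second set of tables, which was derived directly from reads, 15 loci exceeded their host, and 11 did so in both sets. Mapkapk2 averaged 312 TPM there against 76.3 TPM in the gene tables, while Gm37084 averaged 227 TPM, so that pair changed order. Etv6 averaged 44.6 TPM there, above Gm43982 (43.4 TPM) and Gm43984 (31.95 TPM), so both of its pairs changed order too. The 11 include both loci in Gm45140, both in Maml2, a coactivator of Notch (Gm47087 and Phxr4), Gm37082 in Fli1, Gm20100 in Rab20 and 2210406H18Rik. They also include Gm45719 in Fgfr2 and Gm36989 in Gm28285, the hosts that did not pass the limma test. For these and for the loci in Gm45140, the result rests on which overlapping gene was taken as host. The preference for the longest gene was not varied.

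Several hosts carried a string of abundant loci. In all, 34 hosts held 92 of them, up to 6 in Kansl1l, and 8 hosts held loci on both strands. Where 1 host held several same-strand intronic loci, the one nearer the start of the host was the higher in 51 of 69 pairs (73.9%; 27 hosts, 71 loci). By library the counts were 51, 51 and 50 of the 69 pairs. Over all such TEC genes in hosts of at least 10 TPM, whatever their own level, the count was 196 of 325 pairs (60.3%; 94 hosts). Pairs within a host share loci and are not independent, so no test was made.

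Across loci, Spearman's rho between distance from the host's start in kb and the log2 ratio to the host was −0.37 (n = 178 abundant loci) and −0.27 (n = 514 TEC genes in hosts of at least 10 TPM). The abundant loci lay at a median of 38.7% of the way along the host, against 44.0% for all TEC genes and 41.2% for those in hosts of at least 10 TPM. In the first 20% of the host lay 28.1% of them (25.1% of all), and past 80% lay 11.4% (14.6% of all).

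The 4 hosts with at least 4 such loci show the pattern and its exceptions. Picalm had an unbroken fall: Gm45223 at 2.28 kb from the start averaged 74.7 ± 21.6 TPM, Gm45222 at 15.7 kb 65.4 ± 20.4 TPM, Gm45221 at 55.7 kb 45.1 ± 13.6 TPM and Gm45220 at 71.1 kb 15.6 ± 2.68 TPM. The order of these means held in each library (62.7, 53.7, 34.7 and 16.0 TPM in replicate 1, 61.8, 53.6, 40.1 and 12.8 TPM in replicate 2, and 99.6, 88.9, 60.5 and 18.1 TPM in replicate 3). The first 2 levels differ by less than their spread.

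Med13l, a subunit of the Mediator complex, went from 36.7 ± 9.57 TPM at 42.0 kb (Gm43788) to 26.4 ± 2.27 TPM at 57.6 kb (Gm43275) and 15.5 ± 1.14 TPM at 83.7 kb (Gm43274). It then stood at 20.5 ± 3.78 TPM at 126.9 kb (Gm43052) and 12.8 ± 1.61 TPM at 146.7 kb (Gm43051). Cers6, a ceramide synthase, had 95.5, 22.5 and 52.6 TPM at 29.9 kb (Gm37159) and 48.2, 12.9 and 29.5 TPM at 44.6 kb (Gm38236). Its 3 farther loci, at 100.8 to 156.7 kb (Gm37651, Gm37666 and Gm38377), averaged 18.6 to 26.7 TPM. The highest of these 3, Gm37666, lies at 152.2 kb, so levels did not fall evenly along Cers6. In replicate 2 the first locus, at 22.5 TPM, stood close to Gm37666, at 18.7 TPM.

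Fli1, an ETS transcription factor of blood cells, did not fall evenly. Gm37082 at 5.68 kb had 39.3, 61.9 and 39.3 TPM, Gm37474 at 15.9 kb 33.2, 36.5 and 25.4 TPM, Gm38346 at 32.5 kb 44.6, 53.6 and 44.7 TPM and Gm38292 at 62.5 kb 17.7, 15.2 and 16.9 TPM. The locus at 32.5 kb stood above the one at 15.9 kb in all 3 libraries. Fli1 itself was at 26.6 ± 2.41 TPM, below the means of the first 3, although in replicate 3 Gm37474 was at 25.4 TPM and Fli1 at 28.8 TPM. In the second quantification, of these 4 loci Gm37082 alone was above Fli1 by its mean (72.3 against 39.8 TPM), with Gm37474 at 30.7 TPM and Gm38346 at 34.8 TPM.

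**Figure D4:**
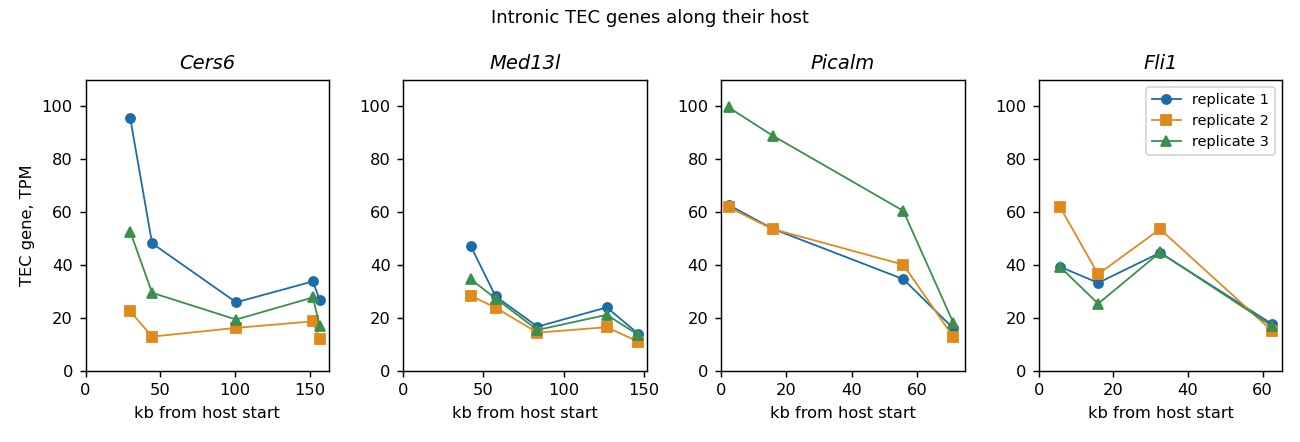
TPM of same-strand intronic TEC genes against their distance in kb from the start of the host, in the 4 hosts with at least 4 of them, 1 line per library. Levels fall along Picalm in every library, from 62.7, 61.8 and 99.6 TPM to 16.0, 12.8 and 18.1 TPM, while the third locus of Fli1 stands above the second.

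Slc6a6 held abundant loci on both strands. Gm45828, on the strand of the host at chr6:91709406-91711241, had 95.3, 67.2 and 81.0 TPM. Beside it, on the other strand at chr6:91711336-91713278, Gm44981 had 117, 80.3 and 102 TPM. Nearer the start of the host, 4930517G19Rik, also on the opposite strand, had 85.8, 63.0 and 61.0 TPM. All 3 were highest in replicate 1, as was Slc6a6 (487, 406 and 417 TPM), and their ranges overlap across the strands.

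Lists of macrophage genes chosen with earlier results of these data known were searched for hosts. In the TLR and NF-kB list of 51 genes, 2 held any TEC gene, and all 3 of those loci were abundant. Gm43430 lies in Nfkb1, which encodes the NF-kB subunit p50, and had 42.9, 20.5 and 39.2 TPM. In Irak2, a kinase that relays TLR signals, Gm43912 had 27.3, 14.2 and 19.0 TPM on the same strand and Gm43963 had 39.6, 12.2 and 30.1 TPM on the opposite strand. All 3 were lowest in replicate 2.

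In the interferon list, 3 genes held 3 TEC genes, all of them abundant. Besides Gm49730 in Parp14, Gm45481 lies opposite Irf2, an interferon regulatory factor, with 28.7, 22.3 and 17.98 TPM. Gm43068 lies opposite Oas2, an RNA-sensing oligoadenylate synthetase, with 22.3, 17.6 and 10.5 TPM. Oas2 itself was at 283 ± 12.7 TPM, so Gm43068 stood −4.13 from it on the log2 scale.

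The list for macrophage identity, adhesion and lysosome had 5 genes with 9 TEC genes, of which 6 were abundant. A630081D01Rik and Gm38062 lie in Dock10, A130071D04Rik in Ptprc, Gm37121 in the semaphorin receptor gene Nrp2 (31.3, 23.3 and 25.3 TPM), Gm44667 in the transcription factor gene Mef2a (27.2, 21.2 and 23.6 TPM) and Gm47657 in the Rac activator gene Elmo1 (16.7, 12.8 and 17.6 TPM). The cytokine list held 1 TEC gene, which was not abundant, and the immediate-early list held 0. Across the 5 lists, 12 of 16 TEC genes were abundant, where 32.4% of all TEC genes in hosts of at least 10 TPM were (219 of 675). In hosts of at least 100 TPM the share was 69.4% on the same strand and 58.3% on the opposite strand. The listed hosts of abundant loci ran from 85.1 TPM (Mef2a) to 878 TPM (Parp14), so these counts do not set the lists apart.

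Of the 23 loci outside protein-coding genes, 13 overlapped a noncoding gene of another type. Of these, 12 lay mostly inside it, 10 on its strand and 2 opposite to it. Dleu2, the noncoding gene that carries the miR-15a and miR-16 cluster, was at 156 ± 16.7 TPM and held Gm37472 (78.1, 54.1 and 57.7 TPM) and Gm37420 (64.0, 48.0 and 48.0 TPM). Mir99ahg, another microRNA host gene at 80.7 TPM, held Gm37311 at 17.3 ± 2.42 TPM. The list of holders thus includes noncoding genes that are themselves transcribed on chromatin.

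Of the same 23, 7 began within 10 kb past the end of a protein-coding gene on their strand, as did 166 of the 1284 TEC genes outside. Gm37226 and Gm38214 lie 2.42 and 6.68 kb past Mthfsl (118 ± 37.8 TPM) and had 37.3, 26.0 and 29.7 TPM and 29.6, 22.0 and 19.2 TPM. The nearer of them was the higher in each library. Gm45553 lies 6.28 kb past Spcs3, a signal peptidase subunit, and at 37.9 ± 7.86 TPM it stood above that gene (4.98 ± 1.21 TPM). The groups are not exclusive, since Gm42548 lies both 2.91 kb past Zfp800 and in a noncoding gene. With neither such an overlap nor such a neighbour were 4 loci (Gm37352, Gm44154, Gm43196 and Gm43990), at 16.9 to 24.6 TPM. Neighbours of other kinds were not counted. Gm44154 begins 1223 bases from the start of Zfp422, a protein-coding gene on the other strand. Gm43196 lies past the end of the noncoding gene Gm20559, on the same strand.

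The annotated 3′ ends were compared by sequence, because a polyadenylation hexamer near the end is a common mark of a finished transcript. The hexamers searched were AATAAA and ATTAAA, on the strand of the transcript, in its last 50 bases. Of the 251 abundant loci, 50 held one (19.9%), against 29.7% of the other TEC genes, 68.8% of protein-coding, 45.0% of antisense and 41.0% of lincRNA genes. By position, 28 of the 178 same-strand intronic loci held one (15.7%, all such TEC genes 19.2%), as did 15 of the 40 on the opposite strand (37.5%, all 40.0%), 7 of the 23 outside (30.4%, all 36.9%) and 0 of the 10 exonic ones (all 24.6%). In each of the 4 position classes the share of the abundant loci was below that of all its TEC genes, a difference that was not tested. By host level the order was the other way: 24.7% of TEC genes in hosts of at least 10 TPM held one, against 21.4% in hosts under 1 TPM. A match is not a proven site.

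The last 50 bases of 7 loci (GENCODE M21 transcripts, mm10, 5′ to 3′) show both kinds of end, with a hexamer in capitals where there is one. The first 3 hold a hexamer, which begins 36, 40 and 50 bases from the annotated end in the order shown. The next 3 are high loci without one, and the last one has no hexamer and an A-rich end.
Gm43197: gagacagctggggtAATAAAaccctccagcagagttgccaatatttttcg
5330406M23Rik: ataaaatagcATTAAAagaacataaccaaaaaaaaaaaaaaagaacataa
Gm38062: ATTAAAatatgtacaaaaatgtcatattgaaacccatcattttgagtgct
Gm37084: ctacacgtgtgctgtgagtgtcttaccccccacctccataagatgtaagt
A130071D04Rik: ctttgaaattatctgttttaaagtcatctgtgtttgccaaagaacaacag
A630081D01Rik: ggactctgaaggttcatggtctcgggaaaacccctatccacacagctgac
Gm45828: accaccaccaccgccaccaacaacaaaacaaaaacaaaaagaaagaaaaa

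The end of Gm43197 lies at chr6:3336772-3336821 and that of Gm37084 at chr1:131086252-131086301, both on the minus strand. In both Gm45828, in Slc6a6, and 5330406M23Rik, which also holds a hexamer, 17 of the last 20 bases are A. An end with at least 12 A in its last 20 bases was found in 25 of the 251 (9.96%), against 8.88% of the other TEC genes and 8.67% of protein-coding genes. A-rich ends were therefore about as frequent in all 3 sets. The bases past the annotated end were not analysed here.

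The median size of the spread between libraries was close to that of other genes, although the loci shifted together by library, as given below. The biological coefficient of variation, edgeR's estimate of the relative spread between replicates beyond counting noise, had a median of 0.192 over 250 of the loci, 0.180 over the hosts and 0.210 over all 14140 genes fitted. This estimate draws each gene toward a trend shared by all genes, so these medians are not independent of each other. The highest library exceeded the lowest by a median of 1.41 times in TMM-scaled CPM (counts scaled for library size and composition), with a range of 1.02 to 6.45. In 40 loci the gap was over 2 times.

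The loci with the widest gaps were all high in replicate 1 and low in replicate 2. Gm42793, which starts 3 bases past the start of Spp1 and has 24.7% of its length in exons, had 147, 24.5 and 105 TPM, beside 147, 21.9 and 110 TPM for Spp1. A630081D01Rik in Dock10 had 150, 34.3 and 93.2 TPM, a gap of 4.62 times in CPM, where Dock10 had 185, 123 and 161 TPM. Gm37159 and Gm38236 in Cers6 had gaps of 4.42 and 3.88 times, with Cers6 at 210, 86.1 and 137 TPM. Gm45244, opposite Acsl1, had 74.2, 19.3 and 44.4 TPM beside 68.4, 26.7 and 55.4 TPM for Acsl1. Each host had the same order of libraries as its locus.

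Over all abundant loci, the median shift of a library from the mean of the 3, in log2 TMM-scaled CPM, was 0.21, −0.15 and −0.06 in replicates 1, 2 and 3. For the hosts it was 0.10, −0.09 and 0.02, and for all genes it was within 0.01 of 0. TPM was highest in replicate 1 for 165 of the 251 and lowest in replicate 2 for 135. Replicate 1 had the largest RNA input and replicate 2 the smallest, and the part of input in these shifts cannot be told apart from the replicate.

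The shifts of locus and host had the same sign in 174, 185 and 126 of 226 pairs in replicates 1, 2 and 3. In replicates 1 and 2 the medians of both sets were shifted the same way, which by itself gives pairs of the same sign, and in replicate 3 they were near 0. Pearson's r across pairs was 0.64, 0.75 and 0.57 on the same strand (n = 186) and 0.59, 0.73 and 0.59 on the opposite strand (n = 40). These are descriptions across genes within each library, where the 3 shifts of a gene sum to 0 and pairs share hosts.

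**Figure D5:**
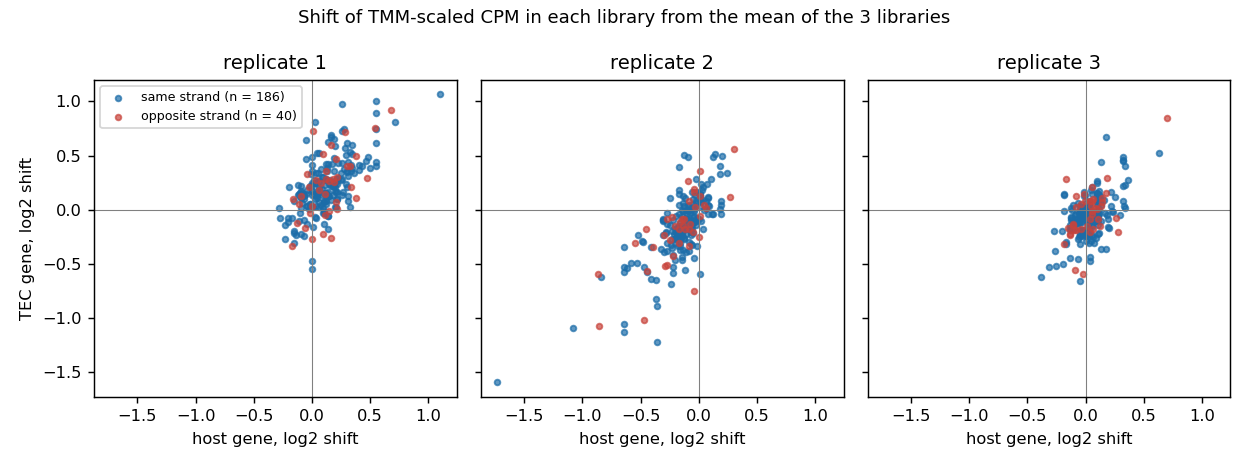
Shift of each abundant TEC gene against the shift of its host, in log2 TMM-scaled CPM relative to the average over the 3 libraries, by library; blue on the same strand (n = 186) and red on the opposite strand (n = 40). The points lie along the rising diagonal, widest in replicate 2, where Gm42793 and Spp1 are at the lower left.

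Counts behind the levels varied. The 251 had 4 to 28548 expected counts per library, and the deposited credibility interval of TPM had a median width of 15.7% of the value (2.67% to 166%). Gm38109, a 181-base locus in Ppp1r21, rests on 10, 7 and 4 counts, which its short effective length turns into 56.5, 43.2 and 21.5 TPM. Gm20236 and Gm37094 have the same 4540-base sequence and the same TPM (16.2 ± 3.54), so how their reads were split is uncertain. The name Gm36638 belongs to 2 gene identifiers.

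By the second quantification, 228 of the 251 (90.8%) were again at 10 TPM or more in every library, among 446 TEC genes that were. The ratio of its mean TPM to that of the gene tables had a median of 0.886, with quartiles of 0.813 and 1.04, and Spearman's rho of the levels was 0.89. For the hosts of intronic same-strand loci the same ratio had a median of 1.26, and for hosts of opposite-strand loci 1.39. The 5 that were higher there by the largest ratio were Gm37689 in Sdcbp (57.1 TPM in the gene tables and 232 TPM in the second), Gm38109 (40.4 and 142 TPM), Gm43633 in Parp11 (24.5 and 76.1 TPM), Gm37702 in Ncoa2 (12.0 and 32.3 TPM) and Gm45684 past Gm4070 (21.1 and 48.3 TPM). Only Gm44772 in Ppfibp2 was below 0.5 of its value (15.9 and 7.95 TPM), and exons of another gene cover all of it. Next lowest by ratio were 6430511E19Rik (15.7 and 11.0 TPM), Gm42793 (91.9 and 65.9 TPM) and, after 1 more locus, Gm43051 (12.8 and 9.31 TPM).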

How the data were processed

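Chromatin RNA of 3 libraries of 1 group was used. Per the file headers, the deposited gene tables hold expected counts, TPM and credibility bounds of TPM. A second set of deposited transcript tables holds estimated counts with TPM, derived directly from the reads. The files give mm10 and annotation M21. Aligner, tool versions and strand setting were not given in the sources used. A first set of transcript tables, with the units of the gene tables, entered no result. Per the labels, libraries were not pooled.

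All 55536 M21 genes matched by identifier. A host is the protein-coding gene covering at least 50% of a locus, same strand first, then by the longest overlap and the longest gene. limma (3.58.1), with an intercept only, tested log2(TPM + 0.1) of 24180 genes one-sided against 1 TPM (Benjamini-Hochberg, 0.05). On this scale, low values are understated. Spread came from edgeR (4.0.16; TMM, filterByExpr, 14140 genes) on rounded expected counts, with DESeq2 (1.42.0) size factors as an alternative. Fits were tested on simulated data. The software was python 3.11.15 (scipy 1.17.1, pandas 2.3.3, numpy 2.4.6, matplotlib 3.10.9) and R 4.3.3.

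The members, gene lists and rules were chosen with earlier results of these data known. Named loci were the 15 highest, the 3 highest of each position class, the 3 nearest the minimum on each side, the 5 with the widest library gap, the 5 that moved most each way between quantifications, and those in listed hosts. One of these is not reported here. Others named for a position or pattern were chosen after their values were seen. P-values measure the spread between these samples.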

Additional observations from a re-analysis of the deposited data

How the results depend on the processing

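The counts and medians named here were recomputed under other settings; correlations, library shifts, host lists and groups outside genes were not. The number of abundant loci depends on the minimum: 477 TEC genes reached 5 TPM and 88 reached 20 TPM in every library, 446 reached 10 TPM in the second quantification, 625 did when TPM was scaled to protein-coding genes, and 982 reached 1 CPM. Leaving out 1 library gave 257 to 280. In the second quantification the median log2 ratio of locus to host moved to −1.90 on the same strand and −2.48 on the opposite strand, and 15 loci in place of 28 exceeded their host; the cause was not tested. Leaving out 1 library gave 26 to 31 loci above their host, and a median coefficient of variation of 0.162 (without replicate 2) to 0.226 (without replicate 3). A hexamer was found in 26.7% of the loci when the last 100 bases were searched. Of the pairs within a host, the nearer locus was the higher in 60.3% over all TEC genes in hosts of at least 10 TPM. The other 43 recomputed values moved by less than their spread or, for counts, by less than 1.5 times; among them, 164 to 175 hosts were above the floor. The alternatives on pairs, on the opposite-strand ratio, on loci above their host and on loci without exons of other genes were chosen after seeing the data.

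A search for A-rich sequence past the annotated ends was not run, since no genome sequence was used here. No paired analysis was possible because the libraries form 1 group. Of the 251 loci, 8 had fewer than 50 counts in some library, and their levels are the least certain. No library is an untreated control.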
